A study of Mus musculus with 1627 samples.

Results

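The 10 genes described here encode cytokine and interferon receptor chains of regulatory T cells (Tregs): Ifngr1, Ifnar1, Ifnar2, Il10ra, Il7r, Il4ra, Il21r, Il6ra, Il6st and Il27ra. They were taken by name from a table of 23725 genes, and each of the 10 had a row and passed the minimum of 50 transcript counts used below. The libraries hold single Tregs sorted from spleen and from injured skeletal muscle, 4 days after injection of cardiotoxin, which injures muscle fibres. All mice were male B6 animals aged 8 months that carried the Foxp3-Ires-Gfp reporter, so that Foxp3-expressing cells are green, and the spleen cells also came from mice with injured muscle. Cells were kept if they excluded the dye DAPI and carried TCRb, CD4 and GFP, and their transcripts were tagged in droplets (inDrops) with unique molecular identifiers (UMIs), which count molecules. Of 1627 cells in all, 15.9% came from 1 library of spleen, and 41.4% and 42.7% from 2 muscle libraries, numbered 1 and 2 here. Where 3 values follow each other without a name, they stand for spleen, muscle library 1 and muscle library 2, in that order. Spleens were dissociated mechanically and muscles with collagenase and dispase, so that tissue and dissociation cannot be told apart. As no animal is named, a tissue is 1 sample here: differences are given without a test, and both muscle comparisons share the same spleen library.

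Cytokine receptors of these families have no enzyme of their own. A ligand joins 2 or more receptor chains, Janus kinases bound to the chains phosphorylate each other and the receptor tails, and STAT proteins docked there move to the nucleus and switch on genes. Chains are shared between receptors, so the same chain can serve several cytokines: the gamma chain Il2rg serves IL-7, IL-4 and IL-21, and gp130 (Il6st) serves IL-6 and IL-27. Interferon gamma binds Ifngr1 and recruits Ifngr2, and type I interferons bind Ifnar2 and recruit Ifnar1. In Tregs, IL-10, IL-27 and the interferons are known to adjust suppressive function, whereas IL-7 receptor protein is usually low beside conventional T cells.

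Over whole libraries, the interferon gamma receptor genes differed between the tissues in opposite directions. The ligand-binding chain Ifngr1 was higher in both muscle libraries, at 530.2, 1154 and 1335 CPM (UMIs scaled to a common library total), while its signalling partner Ifngr2 was lower, at 97.7, 37.2 and 30.3 CPM. Ifngr1 fell just under 2-fold in muscle library 1 when ribosomal protein genes were left out of the sums. Among cells outside the cluster that holds most spleen cells, described below, Ifngr2 stood at 40.5, 36.9 and 30.9 CPM, within 2-fold. The type I interferon receptor genes Ifnar1 and Ifnar2 had intervals that overlapped between all 3 libraries. Of the other 7 members, 0 reached 2-fold in both muscle libraries. The 4 interferon receptor promoters are printed first, because the results set these genes apart from each other. They are the 250 bases before the RefSeq transcription start on mouse build GRCm38.p6, each on the plus strand, with GC boxes (GGGCGG or its reverse complement CCGCCC) in capitals.

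Ifngr1, chr10:19591699-19591948: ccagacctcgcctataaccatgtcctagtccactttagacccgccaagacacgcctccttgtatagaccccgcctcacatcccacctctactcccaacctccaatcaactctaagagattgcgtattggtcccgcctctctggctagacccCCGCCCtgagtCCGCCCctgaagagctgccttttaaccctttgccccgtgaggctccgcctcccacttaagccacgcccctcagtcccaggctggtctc
Ifngr2, chr16:91546809-91547058: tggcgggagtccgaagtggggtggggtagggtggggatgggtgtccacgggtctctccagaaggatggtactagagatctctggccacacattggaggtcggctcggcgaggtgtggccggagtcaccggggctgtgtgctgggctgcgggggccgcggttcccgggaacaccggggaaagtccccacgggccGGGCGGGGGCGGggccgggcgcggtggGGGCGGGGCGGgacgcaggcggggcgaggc
Ifnar1, chr16:91484965-91485214: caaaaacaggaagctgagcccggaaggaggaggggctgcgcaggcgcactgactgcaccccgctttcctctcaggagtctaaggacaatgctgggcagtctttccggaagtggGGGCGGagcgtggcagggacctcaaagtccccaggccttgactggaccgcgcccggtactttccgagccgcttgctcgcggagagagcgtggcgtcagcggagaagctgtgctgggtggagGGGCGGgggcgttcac
Ifnar2, chr16:91372533-91372782: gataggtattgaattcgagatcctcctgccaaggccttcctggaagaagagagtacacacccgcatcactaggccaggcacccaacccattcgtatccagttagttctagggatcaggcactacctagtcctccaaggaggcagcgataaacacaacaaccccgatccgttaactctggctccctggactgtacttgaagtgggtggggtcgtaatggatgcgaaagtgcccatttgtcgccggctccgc

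RefSeq's promoter table held 8 of the 10 members, and Il10ra and Il27ra were not matched. GC boxes numbered 2 for Ifngr1, 4 for Ifngr2, 2 for Ifnar1 and 0 for Ifnar2, counted on both strands. Of 32851 promoter windows of that length, 32.7% held at least 1 GC box, 16.7% at least 2 and 4.09% at least 4. Among the 8 matched members, 5 held a GC box: Il4ra, Il6st, Il21r, Ifngr1 and Ifnar1. The interferon-gamma-activated site TTCNNNGAA, letters that STAT proteins bind, occurred in 7.02% of all windows and in the members Il7r and Ifnar2. The Il7r window (chromosome 15, 9529877 to 9530126) lies inside the gene as GENCODE M21 annotates it (9505788 to 9530176, minus strand). The TATA box letters TATAAA occurred in 12.4% of windows and in 0 of the 8 members. In the 4 printed windows no matches of different motifs overlapped. These are matches of letters and say nothing of binding.

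Several of the receptor genes are neighbours. On chromosome 16 (GRCm38, GENCODE M21) the genes Ifnar2 (91372783 to 91405589), Il10rb (91406164 to 91425834), Ifnar1 (91485238 to 91507441) and Ifngr2 (91547072 to 91565623) follow each other on the plus strand with 0 coding genes between them. The gaps were 0.574 kb, 59.4 kb and 39.6 kb. These neighbours did not move together: the folds over spleen in the muscle libraries were 0.80 and 0.81 for Ifnar2, 1.40 and 1.61 for Il10rb, 0.97 and 0.95 for Ifnar1, and 0.38 and 0.31 for Ifngr2. Ifnar2 and Il10rb both overlap the annotated transcript Gm21970 on the same strand, so some of their reads may not be separable. Ifngr1 lies alone on chromosome 10 (19591949 to 19610229, plus strand). On chromosome 7, Il4ra (125552120 to 125579474) and Il21r (125603429 to 125633570) are also neighbours on the plus strand, 23.95 kb apart.

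Depth and purity set the limits of what follows. The libraries summed to 982570, 1533277 and 1916496 UMIs, so that 1 UMI was worth 1.02, 0.652 and 0.522 CPM, and the median cell held 3541, 1976 and 2487.5 UMIs. The muscle libraries shared 11 cell barcodes, and spleen shared 1 with muscle library 1 and 0 with muscle library 2. All 6 Treg identity genes looked at (Foxp3, Il2ra, Ctla4, Ikzf2, Cd4, Cd3e) had at least 50 UMIs. Summed B cell markers stood at 13.2, 13.7 and 12.5 CPM, with Ms4a1 at 0 in every library. Summed myeloid markers stood at 34.6, 2.61 and 6.26 CPM, highest in spleen, with Adgre1 and S100a8 at 0. Most of the spleen sum came from C1qa (18, 0 and 2 UMIs) and Cd68 (15, 0 and 0 UMIs), whereas Lyz2 gave 0, 3 and 6 UMIs. The muscle fibre gene Acta1, which Tregs should lack, had a UMI in 2.32%, 2.01% and 4.08% of cells thinned to 1000 UMIs. Over 26 marker genes of other cell types this share had a median of 0% in each library and reached 8.11%, 4.17% and 4.08% at most, the first of these for the endothelial gene Pecam1, which some resting T cells also express. Markers of CD8 and NK cells were not among these 26 genes. They summed to 81.4, 73.05 and 81.4 CPM, above the B cell and myeloid sums. Their largest part came from Cd8b1, at 52.9, 37.8 and 65.7 CPM, followed by Nkg7 at 23.4, 33.9 and 15.1 CPM. Cd8a gave only 4, 2 and 1 UMIs, and Ncr1 1, 0 and 0. The 9 markers of tissue effector Tregs summed to 1226, 5613 and 5481 CPM. In muscle the largest parts came from Gzmb (272.8, 2374 and 2148 CPM) and Ccr2 (180.1, 1122 and 1123 CPM). Areg moved less, at 236.1, 376.3 and 308.4 CPM. By this sum Treg state moved with tissue. Its part in each receptor difference was not tested, but values inside and outside the main spleen cluster are given below.

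All intervals are exact 95% intervals and cover counting error only: Poisson for levels, conditional binomial (Clopper-Pearson) for folds and binomial for shares. They are too narrow, because UMIs gathered in few cells. Over all genes tested, the median gene was seen in 0.544, 0.761 and 0.642 times as many cells as UMIs spread at random over the cells' depth would give. For Ifngr1 that ratio was 0.527, 0.901 and 0.837. A call of higher or lower needed a 2-fold difference from spleen, the same way, in each of the muscle libraries, which is a rule of size and no test.

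**Figure D1:**
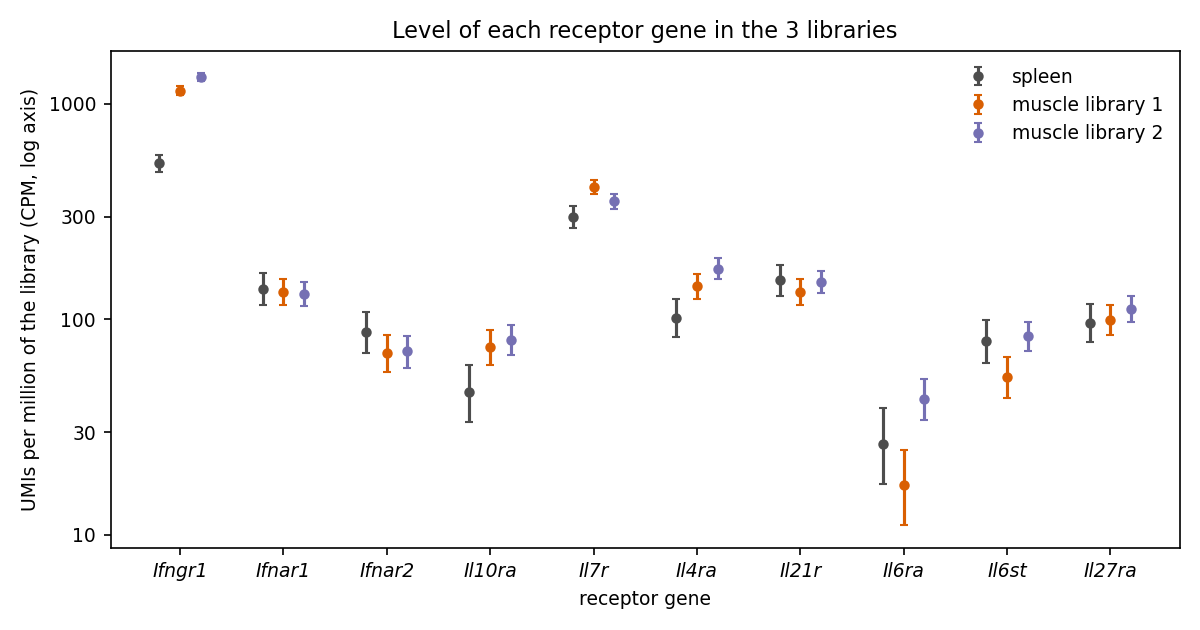
Level of each of the 10 receptor genes in spleen, muscle library 1 and muscle library 2, in CPM on a log axis; bars are exact 95% Poisson intervals of the counts. Ifngr1 stands at 530.2 CPM in spleen and at 1154 and 1335 CPM in muscle, while the 3 libraries overlap for Ifnar1, Ifnar2, Il21r and Il27ra.

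Of the 10 members, 1 was called higher in muscle and 0 lower. Over all 7617 genes with at least 50 UMIs, 7.47% were called higher and 3.45% lower, so 1 of 10 is near the background share. The members' median of the mean log2 fold was 0.08, against 0.05 over all genes tested. The members together supplied 1530, 3514 and 4850 UMIs, and Ifngr1 made up 34.1%, 50.4% and 52.7% of them.

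Ifngr1, the chain that binds the cytokine and Jak1, gave the most UMIs of the 10 members in every library. Its level was 530.2 CPM (485.7 to 577.8) in spleen against 1154 (1101 to 1209) and 1335 (1284 to 1387) in the muscle libraries. Both muscle libraries lay above spleen without overlap of the intervals, and muscle library 2 was 1.16-fold (1.09 to 1.23) above muscle library 1. The fold over spleen was 2.18 (1.97 to 2.41) in muscle library 1 and 2.52 (2.29 to 2.77) in muscle library 2. The call rests on a value near the threshold in muscle library 1: with ribosomal protein genes left out of the library sums, the log2 folds were 0.98 and 1.19 and Ifngr1 was no longer called; 5.76% of all genes were called higher there. Over that and 10 further settings the mean log2 fold stayed between 1.08 and 1.43.

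Ifngr1 was seen in a larger share of muscle cells than of spleen cells. With every cell thinned to 1000 UMIs, Ifngr1 was seen in 26.6% of spleen cells (21.4 to 32.5) and in 61.7% (57.9 to 65.5) and 63.2% (59.4 to 66.8) of cells in the muscle libraries. Without thinning these shares were 43.2%, 79.1% and 78.7%. The spleen share lay above the 8.11% of Pecam1 and the 2.32% of Acta1 in the same cells. Cells with at least 1 thinned Ifngr1 UMI held 1.93, 2.12 and 2.31 of them on average. That mean cannot fall below 1, so at such low counts it tends to move less than the share. UMIs of all genes were also gathered in fewer cells in spleen (median ratios of 0.544, 0.761 and 0.642 above). The share and the UMIs per such cell are therefore not weighed against each other. The upper end also shifted, since 4 or more thinned UMIs were found in 6 spleen cells (2.32%) and in 58 (8.95%) and 85 (12.4%) muscle cells. Thinning left out 0, 26 and 7 shallow cells.

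**Figure D2:**
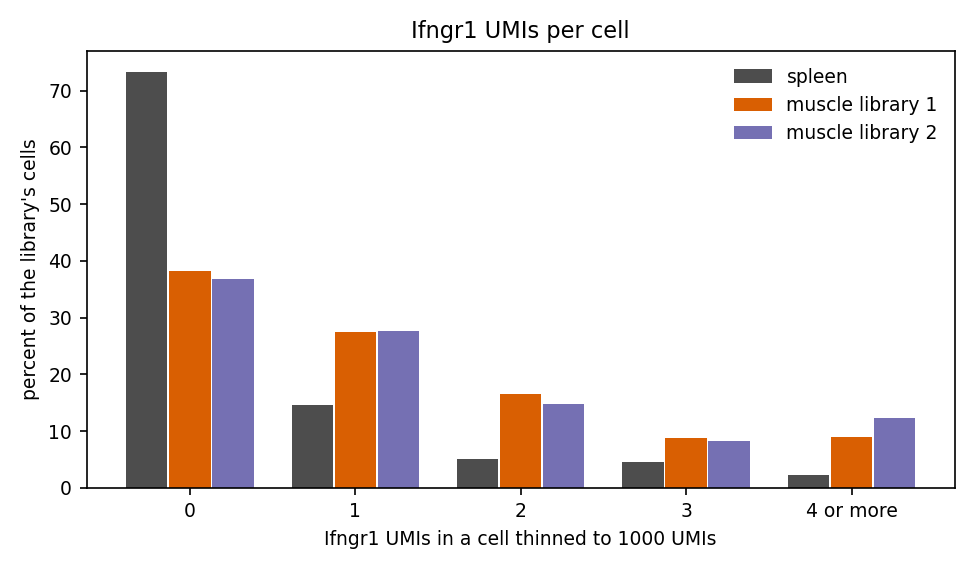
Percent of each library's cells (vertical axis) with 0, 1, 2, 3 or 4 and more Ifngr1 UMIs after every cell was thinned to 1000 UMIs (horizontal axis); each library's bars add up to all its cells of at least 1000 UMIs. Cells without Ifngr1 make up 73.4% of spleen and 38.3% and 36.8% of the muscle libraries.

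Ifngr2, the chain that brings Jak2 to the interferon gamma receptor, ran the other way. It gave 96, 57 and 58 UMIs, or 97.7 CPM (79.1 to 119.3), 37.2 CPM (28.2 to 48.2) and 30.3 CPM (22.98 to 39.1). Spleen lay above both muscle libraries, whose intervals overlapped each other. Ifngr2 was 2.63-fold lower (1.87 to 3.71) in muscle library 1 and 3.23-fold lower (2.31 to 4.55) in muscle library 2, and it was called lower. Thinned cells with an Ifngr2 UMI were 7.72% of spleen (4.78 to 11.7) and 3.70% (2.39 to 5.46) and 2.62% (1.56 to 4.11) of the muscle libraries. Each of these shares lay above the median of 0% of the 26 markers of other cell types and below the highest of them in its library. That highest marker was Pecam1, which some resting T cells express, in spleen and muscle library 1, and Acta1 in muscle library 2. The Acta1 shares of 2.32% and 2.01% lay below the Ifngr2 intervals in spleen and muscle library 1. In muscle library 2 the 4.08% of Acta1 lay inside the interval, so no difference is read from the shares. The difference in level did not hold in all spleen cells. Among the 69 spleen cells outside the cluster that holds most spleen cells, Ifngr2 stood at 40.5 CPM (21.6 to 69.3, 13 UMIs), against 36.9 and 30.9 CPM in the muscle cells outside it, and the gene was no longer called. Among cells outside that cluster, 10.6% of all genes were called higher and 5.68% lower.

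The ratio of the 2 chains differed as well. Ifngr1 had 5.43 UMIs for each Ifngr2 UMI in spleen (4.36 to 6.82), against 31.1 (23.9 to 41.2) and 44.1 (34.004 to 58.3) in muscle. Outside the main spleen cluster the gap was smaller, with 13.6 (7.76 to 26.1) in spleen, from 13 Ifngr2 UMIs, against 31.2 (23.9 to 41.6) and 43.3 (33.4 to 57.1). How well each transcript is captured is not known, so the ratio compares libraries and not the chains. Both chains were seen in 6, 15 and 11 cells after thinning. The product of the separate shares gives 5.33, 14.8 and 11.4 cells, so the pair appeared together about as often as 2 genes distributed independently.

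The type I interferon receptor genes lay close in the 3 libraries. Ifnar1, the chain that binds Tyk2, stood at 138.4 CPM (116.1 to 163.7) in spleen against 134.4 (116.6 to 154.01) and 131.5 (115.8 to 148.8) in muscle. The 3 intervals overlapped, and the folds were 0.97 (0.78 to 1.21) and 0.95 (0.77 to 1.18). Ifnar2, the high-affinity chain that binds Jak1, stood at 87.5 CPM (70.01 to 108.1), 69.8 (57.2 to 84.3) and 70.96 (59.5 to 83.9), again with overlapping intervals. Thinned shares were 10.8%, 10.96% and 11.9% of cells for Ifnar1 and 5.41%, 5.56% and 5.97% for Ifnar2. The Ifnar2 share in spleen lay below the 8.11% of Pecam1 there. The folds of Ifnar2 were 0.80 (0.59 to 1.07) and 0.81 (0.61 to 1.08). The intervals of both genes exclude a 2-fold difference in either direction, within counting error.

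Genes that type I interferons switch on nevertheless differed between the tissues. Of 16 measured genes on that list, 12 were called higher and 0 lower, with a median mean log2 fold of 1.29. The 12 are 75% of the list, beside 7.47% over all genes tested. Irf7, the transcription factor that sustains the response, stood at 23.4, 101.7 and 110.6 CPM, Bst2, which tethers budding viruses, at 71.2, 281.1 and 216.02 CPM, and Zbp1, a sensor of unusual nucleic acids, at 96.7, 233.5 and 263.5 CPM. Fewer were called under other settings, 7 with ribosomal protein genes left out of the sums and 5 among cells outside the main spleen cluster. Of all genes, 5.76% and 10.6% were called higher under these settings. The cluster of interferon-high-like cells, led by Ifit3, Ifit1 and Rsad2, held 2.32%, 15.1% and 13.5% of the libraries' cells. In its muscle cells Ifnar1 stood at 134.3 CPM (91.8 to 189.6) and 131.8 (92.3 to 182.5). Ifnar2 stood there at 75.5 CPM (44.8 to 119.4) and 43.9 (22.7 to 76.7). The intervals of both receptor genes included their library levels in these cells.

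On the interferon gamma response list 1 of 17 measured genes was called higher and 0 lower, near the 7.47% called higher over all genes. The median of the list was 0.54, above the 0.05 over all genes tested, so few calls do not mean that the list lay level. The called gene was Irf8, a transcription factor best known in myeloid cells and also induced in T cells, at 16.3, 67.2 and 52.2 CPM. Genes that had no call included Irf1, the early transcription factor of the response, at 264.6, 168.3 and 145.1 CPM, and Igtp, an interferon-inducible GTPase, at 211.7, 388.1 and 352.7 CPM. Cxcl10, the chemokine named for its induction by interferon gamma, stood at 171.998, 316.97 and 197.2 CPM. Of the ligand itself, Ifng, only 5, 3 and 13 UMIs were counted.

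**Figure D3:**
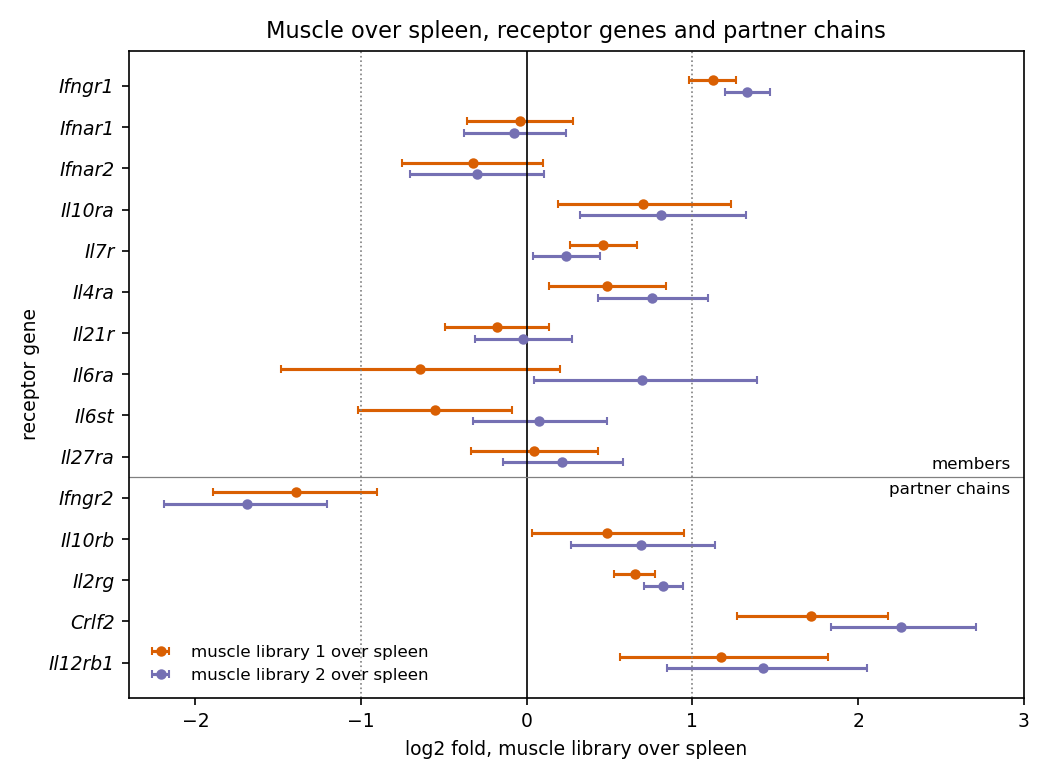
Log2 fold of muscle library 1 and of muscle library 2 over spleen (horizontal axis) for the 10 members and 5 partner chains (vertical axis); bars are exact 95% Clopper-Pearson intervals and dotted lines mark 2-fold. Ifngr1 lies beyond 1 on the right in both libraries, Ifngr2 beyond 1 on the left, and Crlf2 and Il12rb1 are the partner chains beyond 1 on the right.

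IL-10 signals through Il10ra, the ligand-binding chain, and Il10rb, which IL-22 and interferon lambda also use. Il10ra stood at 45.8 CPM (33.4 to 61.3) in spleen against 74.4 (61.3 to 89.3) and 80.4 (68.2 to 94.1) in muscle. Muscle lay above spleen in both libraries by 1.62-fold (1.14 to 2.35) and 1.75-fold (1.25 to 2.50), which misses the 2-fold rule and meets a 1.5-fold rule, as did 15.9% of all genes in that direction. Il10rb showed folds of 1.40 (1.02 to 1.93) and 1.61 (1.202 to 2.20), from 61.1 CPM in spleen to 85.4 and 98.6 CPM. Il10, the cytokine, stood at 86.5, 148.7 and 129.9 CPM and was not called either. Thinned shares for Il10ra were 3.47% (1.60 to 6.49), 7.25% (5.38 to 9.53) and 6.55% (4.82 to 8.67), the first of them with an interval that includes the 2.32% of Acta1.

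Il7r, which pairs with Il2rg for IL-7 and with Crlf2 for TSLP, stood at 299.2 CPM (265.99 to 335.4) in spleen against 412.2 (380.7 to 445.6) and 353.2 (327.1 to 380.9) in muscle. The folds of 1.38 (1.198 to 1.59) and 1.18 (1.03 to 1.36) lay under the rule, and muscle library 2 was closer to spleen than muscle library 1. Spleen cells differed among themselves by as much as the tissues did. Inside the main spleen cluster Il7r stood at 241.7 CPM (205.7 to 282.2), and in the 69 other spleen cells at 417.9 CPM (350 to 494.96), against 420 and 350 CPM in the other muscle cells. Outside that cluster the mean log2 fold turned to -0.12. In thinned cells Il7r was seen in 18.5%, 27.5% and 22.9%, and in both muscle libraries it was seen together with Il2rg in about as many cells, 99 and 81, as the product of shares gives, 98.1 and 84.8.

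The partner of Il7r in the TSLP receptor was among the partner chains that differed most. Crlf2 stood at 50.9 CPM in spleen against 166.96 and 243.7 in muscle, so that the muscle libraries also differed from each other. Its folds were 3.28 (2.42 to 4.54) and 4.79 (3.57 to 6.55). Crlf2 was seen in 3.09% of thinned spleen cells (1.34 to 5.995), 14.5% (11.9 to 17.5) and 15.3% (12.7 to 18.2) of the muscle libraries' cells. The spleen interval includes the 2.32% of Acta1, so the spleen share is not shown to lie above background. It had 0.17, 0.41 and 0.69 UMIs for each Il7r UMI. Among cells outside the main spleen cluster the folds were smaller and still called, 2.09 (1.39 to 3.26) and 3.06 (2.06 to 4.73). Tslp, the ligand, had 0 UMIs in every library, which by the limit of 3 counts allows up to 3.05, 1.96 and 1.57 CPM.

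Il4ra, shared by the receptors for IL-4 and IL-13, stood at 101.8 CPM (82.8 to 123.8) in spleen against 142.2 (123.9 to 162.4) and 172.2 (154.1 to 191.8) in muscle. The muscle libraries lay 1.40-fold (1.10 to 1.79) and 1.69-fold (1.35 to 2.14) above spleen and were not called. Its value moved with the cells compared. With cells thinned to 1000 UMIs the mean log2 fold was 0.13, and outside the main spleen cluster it was 1.11, from 71.7 CPM (45.5 to 107.6, 23 UMIs) in spleen against 138.3 and 173.2 CPM. Il4 itself had 0 UMIs, and Il13 had 0, 2 and 5. Of 9 genes linked to STAT6, the STAT that Il4ra docks, 4 were called higher and 0 lower, with a median of 0.80. Over all genes tested, 7.47% were called higher. The list includes Il4ra itself, and its genes Il1rl1 and Gata3 also count among the markers of tissue effector Tregs. It is therefore no independent measure of signalling through Il4ra. The called genes were Il1rl1, the IL-33 receptor, the chemokine receptors Ccr8 and Ccr4, and Cish, which STAT5 also induces. Ccr4 stood at 38.7, 78.9 and 118.97 CPM, and Gata3, at 252.4, 513.9 and 376.7 CPM, was not called. Leaving ribosomal protein genes out of the sums left 3 calls, and leaving out the main spleen cluster 2. Ccr4 was not called in thinned cells (log2 folds of 0.79 and 1.24) or without cells holding a UMI of a marker of other cell types (0.97 and 1.52).

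Il21r and Il27ra were near level. Il21r, which with Il2rg forms the IL-21 receptor, stood at 151.6 CPM (128.3 to 178.04), 133.7 (116.02 to 153.3) and 149.2 (132.4 to 167.6). The folds were 0.88 (0.71 to 1.10) and 0.98 (0.81 to 1.21), with 12.4%, 10.8% and 12.8% of thinned cells positive. Outside the main spleen cluster spleen was higher, at 212.1 CPM (164.7 to 268.9) against 134.95 and 145.5 CPM, a mean log2 fold of -0.60. Il27ra, the ligand-specific chain for IL-27, stood at 96.7 CPM (78.2 to 118.2), 99.8 (84.6 to 116.9) and 112.2 (97.7 to 128.2), with folds of 1.03 (0.79 to 1.35) and 1.16 (0.91 to 1.49). Outside the main spleen cluster these folds were 0.82 (0.57 to 1.21) and 0.95 (0.67 to 1.38), so no direction is read for Il27ra. On chromosome 8 Il27ra (84030294 to 84042589, minus strand) is overlapped by Palm3 on the opposite strand, and the strand setting of the counting is not known.

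The IL-6 receptor genes gave the weakest data. Il6ra, the chain that binds IL-6, had 26, 26 and 82 UMIs, or 26.5 CPM (17.3 to 38.8), 16.96 (11.1 to 24.8) and 42.8 (34.03 to 53.1). The muscle libraries fell on opposite sides of spleen, with folds of 0.64 (0.36 to 1.15) and 1.62 (1.03 to 2.62), and differed from each other by 2.52-fold (1.61 to 4.09). Thinned cells with Il6ra were 2.32%, 2.31% and 3.64%, between the median of 0% and the highest share of the 26 markers of other cell types and close to the 2.32%, 2.01% and 4.08% of Acta1, so these shares are not read as a difference. Il6st, the gp130 chain that carries the signal, stood at 79.4 CPM (62.7 to 99.1), 54.1 (43.1 to 67.1) and 83.5 (71.1 to 97.5). Its folds were 0.68 (0.49 to 0.94) and 1.05 (0.80 to 1.40), and muscle library 2 was 1.54-fold (1.18 to 2.04) above muscle library 1. For Il6ra and Il6st the gap between the muscle libraries exceeded the mean gap to spleen, so no direction is read for either. Il6 had 0 UMIs in every library, and Osm, another cytokine that uses gp130, had 22, 16 and 25.

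Partner chains from a list of 22 genes were examined in the same way, and 12 had at least 50 UMIs. Of these 12, 2 were called higher and 1 lower, with a median of 0.51. These are 16.7% and 8.33%, beside 7.47% and 3.45% over all genes tested. Besides Crlf2 and Ifngr2, the called gene was Il12rb1, a chain of the IL-12 and IL-23 receptors, at 29.5, 66.5 and 79.3 CPM, with folds of 2.25 (1.48 to 3.53) and 2.69 (1.80 to 4.15). Outside the main spleen cluster its log2 folds were 0.05 and 0.31, and it was not called there. Without cells holding a UMI of a marker of other cell types, Il12rb1 had log2 folds of 1.06 and 0.99 and was not called either. Il2rg, the gamma chain, was abundant at 774.5, 1216 and 1372 CPM, with folds of 1.57 (1.44 to 1.71) and 1.77 (1.63 to 1.92). Il2rg was seen in 38.6% of thinned spleen cells (32.6 to 44.8), 55.1% (51.2 to 58.97) and 54.003% (50.2 to 57.8) of the muscle libraries' cells. The partner chains Osmr and Il12rb2 had 0 UMIs in every library.

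Downstream of the receptors, 12 Janus kinases, STATs and Irf9 were measured, of which 1 was called higher and 0 lower, with a median of 0.35. The 1 call is 8.33% of the list, near the 7.47% called higher over all genes tested. Jak3, the kinase bound to Il2rg, stood at 28.5, 63.9 and 69.9 CPM, with folds of 2.24 (1.46 to 3.55) and 2.45 (1.62 to 3.83); outside the main spleen cluster its log2 folds were 0.55 and 0.70. The kinases of the interferon receptors lay within 2-fold, with Jak1 at 624.9, 613.7 and 573.96 CPM, Jak2 at 127.2, 121.3 and 88.2 CPM and Tyk2 at 41.7, 61.3 and 65.7 CPM. Stat3, the main STAT of gp130, IL-10 and IL-21, stood at 278.9, 338.5 and 346.99 CPM. Stat2, used by type I interferons, stood at 22.4, 49.6 and 41.2 CPM, with folds of 2.21 and 1.84, and was not called. Its log2 folds depended on the cells: they were 4.03 and 3.75 outside the main spleen cluster, from 1 spleen UMI, 2.08 and 1.74 without cells holding a UMI of a background marker, both called higher, and 0.68 and 0.18 in thinned cells. Of 12 STAT3-linked genes 1 was called higher, again 8.33% and near the share over all genes. It was Ahr, a ligand-activated transcription factor, with only 8, 36 and 42 UMIs. Outside the main spleen cluster Ahr was not called, with log2 folds of 0.11 and 0.00087.

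Feedback inhibitors of these receptors included 3 called genes among 17 measured, all higher, with a median of -0.13. The calls are 17.6% of the list, beside 7.47% over all genes tested. Usp18, which binds Ifnar2 and shuts off type I interferon signalling, stood at 19.3, 76.96 and 74.1 CPM. Cish, induced by STAT5, stood at 193.4, 574.6 and 494.7 CPM, with folds of 2.97 (2.54 to 3.49) and 2.56 (2.19 to 3.01), and Socs2 was called with it. Socs1, the inhibitor of the interferon gamma receptor, stood at 76.3, 85.4 and 67.8 CPM, and Socs3, the inhibitor that docks on gp130, at 94.6, 141.5 and 122.1 CPM, neither of them called. The phosphatases Ptpn2 and Ptpn1 stood at 106.9, 75.003 and 46.4 CPM and at 440.7, 249.8 and 276.5 CPM, without a call. Of 9 measured genes of receptor shedding and trafficking, Rhbdf2, a cofactor of the protease Adam17, was called on 8, 27 and 52 UMIs. It lost the call without ribosomal protein genes in the sums, and outside the main spleen cluster its log2 folds were -0.05 and 0.57. Nor was Rhbdf2 called without cells above 3 times the library median UMIs (0.97 and 1.76), without cells holding a UMI of a background marker (0.58 and 0.96) or as a share of thinned cells (0.85 and 1.29). Adam17, which cuts Il6ra from the surface, stood at 81.4, 67.2 and 76.7 CPM. Of 18 ligands of the members only 4 were measured, and Ebi3, the subunit that IL-27 and IL-35 share, was called higher at 23.4, 69.1 and 79.8 CPM. Among cells outside the main spleen cluster its log2 folds were 0.50 and 0.70. The 1 call made up 11.1% of the shedding list and 25% of the ligands, beside 7.47% over all genes tested.

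Of 9 measured regulators of Il7r, 1 was called higher and 2 lower. These are 11.1% and 22.2%, beside 7.47% and 3.45% over all genes tested. Tcf7, a factor of resting T cells, stood at 128.2 CPM in spleen and gave 13 and 5 UMIs in muscle, and Gfi1, a repressor of Il7r, was 2.28-fold (1.49 to 3.52) and 2.85-fold (1.86 to 4.40) lower. Runx3 was higher, at 50.9, 116.1 and 132.01 CPM. Foxo1, which activates Il7r in resting T cells, stood at 452.9, 299.4 and 288.03 CPM, and Foxp1, which competes with it, at 273.8, 143.5 and 147.7 CPM, both short of the rule. Outside the main spleen cluster neither Gfi1 (log2 folds of -0.39 and -0.76) nor Runx3 (0.63 and 0.81) was called.

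**Figure D4:**
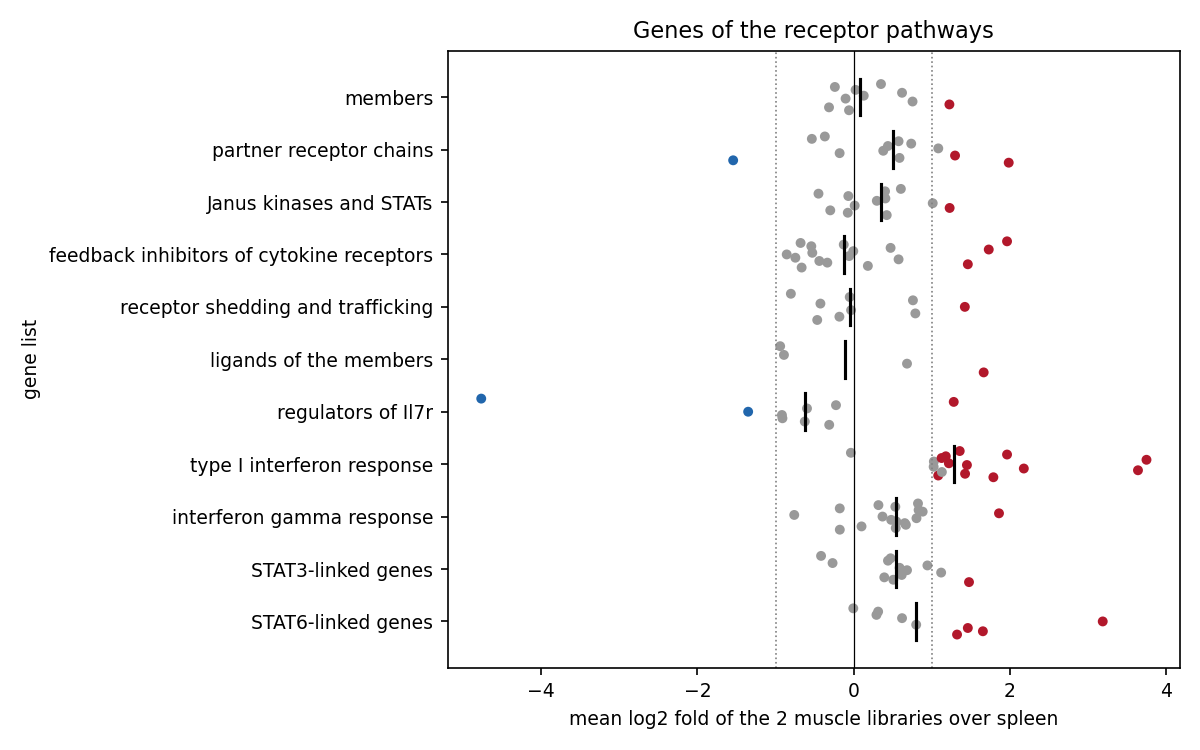
Mean log2 fold of both muscle libraries over spleen (horizontal axis) for the members and for the genes of 10 pathway lists with at least 50 UMIs (vertical axis); each point is a gene, red points were called higher and blue lower, vertical bars are medians and dotted lines mark 2-fold. The type I interferon response list has the highest median, 1.29, and points beyond a dotted line that stay grey missed 2-fold in 1 muscle library.

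Cells were clustered without the 10 members, to compare the receptors between cells of like profile. Partner chains such as Ifngr2 and Crlf2 and the pathway genes were not left out, so they could help to shape the clusters. Their differences between clusters are therefore a description. Of 8 clusters, cluster 8 held 73.4% of the spleen cells and 24 and 21 cells (3.56% and 3.03%) of the muscle libraries. Its leading genes were Ccr7, Evl, Ift80 and Satb1, among them 2 markers of resting Tregs, which is short of the 3 needed for a name, and it is called the main spleen cluster here. No other cluster held more than 18 spleen cells, so spleen values exist for this cluster and for the sum of the others. Within the main spleen cluster Ifngr1 stood at 519.7 CPM (466.2 to 577.6) in spleen cells against 1231 (924.9 to 1606) and 1238 (915.9 to 1637) in muscle cells, the latter from 54 and 49 UMIs. The folds there were 2.37 (1.74 to 3.16) and 2.38 (1.73 to 3.22). Outside the cluster they were 2.09 (1.79 to 2.45) and 2.42 (2.08 to 2.84), from 552.02 CPM (473.7 to 640) in spleen against 1152 and 1337 CPM. Ifngr1 thus differed by tissue to a like extent in both sets of cells, and hardly between the sets within spleen. In muscle library 2 the log2 fold inside the cluster was 0.71 with TMM scaling of the cluster sums and 0.75 with 30 principal components. With 30 neighbours another cluster had 25 spleen cells, and there the Ifngr1 folds were 1.46 (1.17 to 1.83) and 1.57 (1.27 to 1.95). A further cluster of that setting, with 28 spleen cells, gave 2.13 (1.62 to 2.83) and 2.69 (2.07 to 3.55). At resolution 0.5 the folds were 2.26 and 3.06 in a cluster with 21 spleen cells and 2.45 and 2.62 in one with 34. At resolution 1.2 they were 1.95 and 2.48 in a cluster with 23 spleen cells. In one with 22 the fold was 1.45, for muscle library 2 alone.

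Ifngr2 was divided between the clusters within spleen, though it was not left out of the clustering. It stood at 125.4 CPM (99.9 to 155.4, 83 UMIs) in spleen cells of the main spleen cluster against 40.5 CPM in the other spleen cells. Only 2 UMIs in muscle library 1 and 0 in muscle library 2 fell in the muscle cells of that cluster. The fold there had an interval of 0.04 to 1.36 for muscle library 1, whereas for muscle library 2 the upper end was 0.76, below spleen. With the other clusterings that could be compared, the upper end in muscle library 2 was 0.63 at resolution 0.5, 0.61 with 30 neighbours and 0.59 with 30 principal components. These values rest on 1, 0 and 0 muscle UMIs. In muscle library 1 the upper ends were 1.33, 1.71 and 0.99 in the same order, on 3, 2 and 1 UMIs, so only the last lay below spleen. Crlf2 was divided the other way, at 36.3 CPM (23.2 to 53.9) in the main spleen cluster and 81.1 CPM (52.97 to 118.8) in the other spleen cells. For the remaining members no fold within the cluster rested on more than 21 muscle UMIs, and the muscle libraries often disagreed, as for Il7r at 136.8 CPM (6 UMIs) and 530.6 CPM (21 UMIs).

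**Figure D5:**
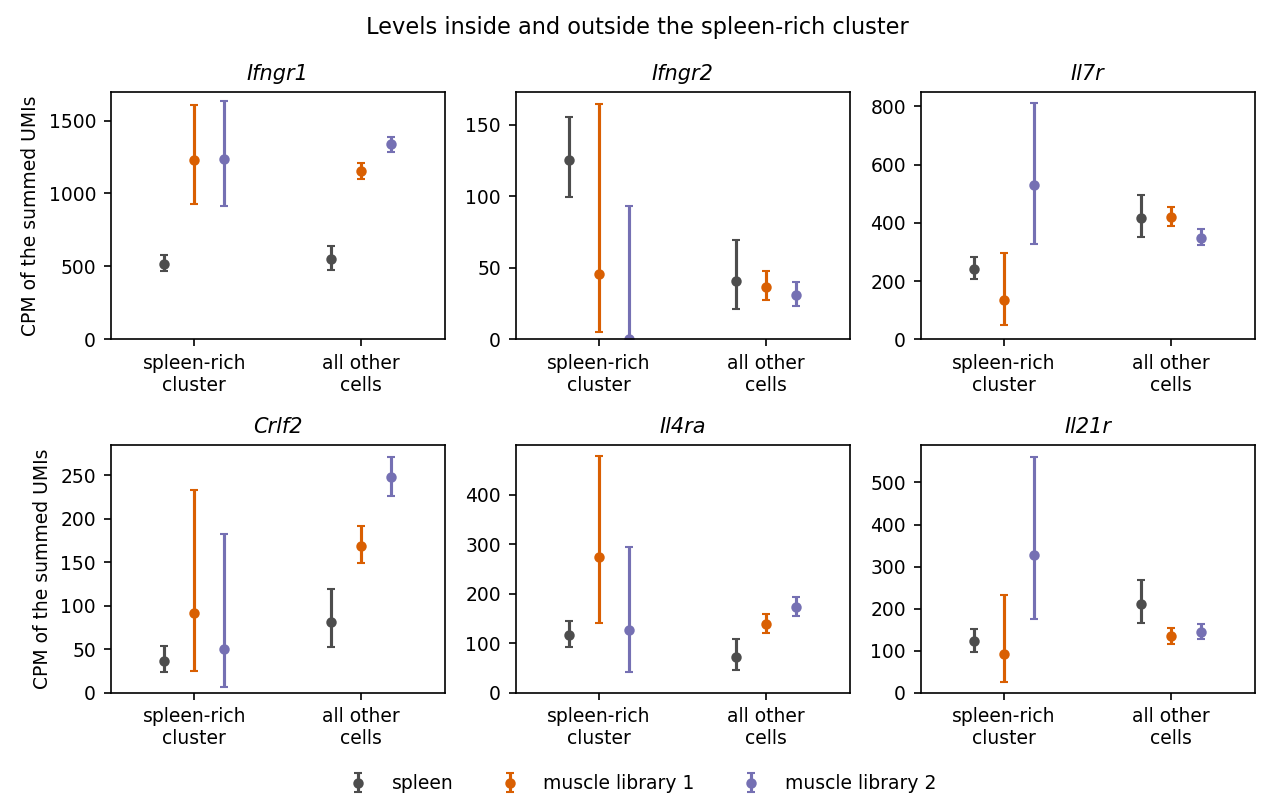
Level in CPM of the summed UMIs (vertical axis, from 0) of 6 receptor genes in the cluster that holds most spleen cells and in all other cells (horizontal axis), for each library; bars are exact 95% Poisson intervals. Ifngr1 is at 519.7 CPM inside and 552.02 CPM outside in spleen, and at 1231 and 1238 CPM inside and 1152 and 1337 CPM outside in muscle, whereas Ifngr2 in spleen is 125.4 CPM inside and 40.5 CPM outside, next to 36.9 and 30.9 CPM in muscle.

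Among muscle cells Ifngr1 varied by about 2-fold between clusters, in the same way in both libraries. It was lowest in cluster 1, at 691.3 CPM (608.7 to 781.9) and 812.2 (722.6 to 909.9) in the muscle libraries. Cluster 1 was led by Stmn1, Il1rn and Tff1, and its cells were deep, with a median of 3981 UMIs. It was highest in cluster 6, led by Aldh3a2, Nr1d2 and Ccr4, at 1632 CPM (1382 to 1915) and 1750 (1544 to 1976). The interferon-high-like cells stood between them at 998.7 CPM (875.8 to 1134) and 1241 (1112 to 1380), as did the immediate early-high-like cells at 1040 CPM (898.6 to 1197) and 1120 (998.9 to 1252). Even the lowest muscle value lay above the 519.7 CPM of the main spleen cluster. Ifnar1 was also lowest in cluster 1 of muscle library 1, at 84.7 CPM (57.6 to 120), and stood at 87.2 CPM (59.7 to 123.1) in that cluster of muscle library 2.

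Genes whose levels followed a member were ranked by Pearson correlation of log2(CPM + 5) over 17 sums of cluster and library, among 3620 genes with at least 200 UMIs. These sums share 3 libraries and their depth, so the values are a description. Ifngr1 was followed most closely by Crem (r = 0.85), a cAMP-responsive transcription factor, Dgat1 (0.84), an enzyme of triglyceride synthesis, and Dock2 (0.81), which activates Rac in lymphocytes. The same 3 genes came out with a minimum of 500 UMIs and with a pseudocount of 1 CPM. Crem stood at 320.6, 631.3 and 635.5 CPM, Dgat1 at 82.4, 290.9 and 362.1 CPM, and Dock2 at 256.5, 363.3 and 438.8 CPM. The 3 closest genes of Il7r were Rusc1 (0.83), Tbc1d8b (0.82) and Atf7ip (0.82), and those of Il10ra were Ech1 (0.80), Arpc1b (0.78) and Slc3a2 (0.77). Il4ra was followed by Ssr1 (0.82), Rab37 (0.80) and Srsf4 (0.76), and Il21r by Ssr2 (0.82), Inpp5k (0.81) and Abhd17a (0.76). For the IL-6 and IL-27 receptor chains they were Mtif2 (0.86), Gla (0.78) and Cyp2e1 (0.73) with Il6ra, Smim19 (0.78), 9330158H04Rik (0.77) and Prkag1 (0.76) with Il6st, and Tmed10 (0.71), Yif1a (0.69) and Ddx39b (0.68) with Il27ra. Ifnar1 was nearest to Neurl3 (0.74), Srsf5 (0.71) and Mtmr12 (0.71), and Ifnar2 to Smek2 (0.81), Cmah (0.78) and Sltm (0.74). With the 500 UMI minimum only 12 of the 30 closest genes stayed, Ifngr1 keeping all 3.

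Per cell, few receptor molecules were counted. Thinned to 1000 UMIs, 34.7% of spleen cells and 16.05% and 13.4% of muscle cells had no UMI of any member. The mean cell showed 1.03, 1.53 and 1.54 of the 10 genes, and no cell showed more than 5. Both type I receptor chains appeared together in 1, 4 and 4 cells, where the product of shares gives 1.51, 3.94 and 4.89, and Il10ra with Il10rb in 1, 3 and 4 cells against 0.45, 2.97 and 3.01. Absence of a UMI at this depth does not show that a cell lacks the receptor.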

How the data were processed

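Per the labels' protocols, live TCRb+ CD4+ GFP+ cells were encapsulated for inDrops, their mRNA was primed with oligo dT and amplified by in vitro transcription, and libraries were sequenced on a NextSeq500. The authors deposited raw UMI counts per gene and cell, and the submitters' processing notes name mm10, TopHat2 and SAMtools. The sources used here do not give annotation, strand setting or UMI collapsing. Cells were assigned to 3 libraries by their labels, and all 1627 were kept (259 of spleen, 674 and 694 of muscle), of which 259, 648 and 687 had at least 1000 UMIs. The sums reached 98.7% to 98.8% of the UMIs stated in the labels. Median mapped reads per UMI were 42.7, 19.6 and 35.6 in the same order.

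CPM were computed from UMI sums of each library. A count of 0 was taken as the floor of 3 counts in folds. For shares, cells were thinned to 1000 UMIs (seed 1). Clusters used the 1500 most variable genes without the 10 members, 20 principal components, 15 neighbours and Leiden resolution 0.8. No doublet caller was run; 0, 12 and 7 cells above 3 times their library's median UMIs were kept. Scripts were tested on simulated data. Named are all members, the genes past the rule in each pathway list (up to 6), partner chains and, for each member, the 3 genes most like it; other genes of the lists were added as examples after their values were seen. The members and lists were chosen with earlier results of these data known. GENCODE M21 held 96.2% of the table's symbols. Alternatives covered scaling (edgeR 4.0.16 TMM factors, DESeq2 1.42.0 size factors, sums without ribosomal protein genes), UMI minimum, fold, weighting, thinning, each muscle library alone, cells left out and clustering; shares of thinned cells and leaving out the main spleen cluster were added after seeing the data. Calculations used Python 3.11.15, scipy 1.17.1, scanpy 1.11.5 and R 4.3.3. Some genes of the lists are not reported here.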

Additional observations from a re-analysis of the deposited data

How the results depend on the processing

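The number of members called higher was 1 and became 0 without ribosomal protein genes in the library sums, 2 with a 1.5-fold rule (Il10ra and Ifngr1) and 0 with a 3-fold rule; under the other 12 settings it was 1. The number called lower was 0 in every setting run. Of all genes tested, 7.47% were called higher, against 9.19% with a minimum of 10 UMIs, 5.83% with a minimum of 200, 15.9% at 1.5-fold and 2.93% at 3-fold. The 3.45% called lower became 5.64% and 1.82% with those minimums, 10.8% and 0.95% with those folds, 6.96% with muscle library 2 alone, 6.89% with muscle library 1 alone and 5.68% without the main spleen cluster, an alternative chosen after seeing the data. Each of these counts moved by over 1.5 times; the minimums also altered the number of genes tested, from 7617 to 10741 and 3620. Without ribosomal protein genes the median log2 fold of all genes shifted by -0.14, and 52.7% of calls were higher against 68.4%. The cause of these changes was not tested, apart from the rule itself where the fold or minimum was altered. The mean log2 fold of Ifngr1 stayed above 0 in every setting. Without the main spleen cluster Il7r turned to -0.12, Il27ra to -0.18 and Ifnar1 to 0.26. Il27ra also turned to -0.01 without ribosomal protein genes in the sums, and Ifnar2 to 0.04 with equal weight per cell. As shares of thinned cells Ifnar1 stood at 0.08 and Ifnar2 at 0.09. At resolution 1.2 the muscle cells of the main spleen cluster numbered 13 and 8, under the minimum of 20, so no fold was computed. Shares of cells depended on the thinning depth: Ifngr1 in muscle was seen in 53.3% and 54.9% of cells at 750 UMIs and in 71.5% and 70.1% at 1500. No paired analysis was possible because replicate numbers of single cells only name them and the labels tie no library to an animal.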
